A study of Mus musculus with 12 samples.

Results

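A microRNA hairpin is cut into a duplex of 2 short strands, and the strand that older names mark with a star is the passenger, usually the less abundant arm of its hairpin. Described here are the star-named assays of a mouse carotid artery study, measured by quantitative PCR, leaving out the stars of hairpins such as miR-21, miR-30, miR-125, miR-145 and those of the Dlk1-Dio3 imprinted cluster. This rule, which uses names and no measured values, took 67 of the 110 star-named assays among 517 miRNA assays, and 43 star-named assays stood outside it. miR-300* was kept because its number is not in the list of omitted numbers, although its hairpin also lies in the Dlk1-Dio3 cluster. The samples were 6 partially ligated left carotid arteries and 6 untreated right carotid arteries, 12 in all. Every artery, treated or not, came from female apoE-/- mice, a strain lacking apolipoprotein E that develops atherosclerosis on a fatty diet, aged 6 to 8 weeks by the labels and fed for 6 weeks on a diet that held 19.5% casein, 21% crude fat and 0.15% cholesterol. Partial ligation closes most outlets of the left common carotid artery and so lowers and disturbs its flow, while the untreated right arteries are, by the counts in the series text, those of the operated mice. The arteries were whole vessels, so fewer cells of a type and less RNA per cell cannot be told apart. The series text gives 6 mice, and the labels number the arteries 1 to 6 in each group without saying that same-numbered arteries shared a mouse.

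As background, Dicer releases both strands of a hairpin in equal amounts, and an Argonaute protein keeps the strand whose 5′ end is less firmly paired and discards the other. The level of a passenger therefore depends on how much hairpin is made and on how much of the strand escapes decay, whereas the star-to-guide ratio takes out what both strands share. Some passengers are loaded and act on targets of their own, since their seed, bases 2 to 8 at the 5′ end, differs from that of the guide.

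The let-7 hairpins show how far passengers part from their guides, and the sequences are given because the let-7 passengers had the lowest median level difference of the hairpin groups described here. All sequences are from RefSeq (mouse build GRCm38.p6), 5′ to 3′, with the seed in capitals, and 25 of 25 assays looked up were matched after star names had been assigned to arms by nomenclature. The 5 let-7 guides share 1 seed, and their 5 passengers have 5 different seeds.
let-7d: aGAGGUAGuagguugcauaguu
let-7d*: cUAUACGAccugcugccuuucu
let-7a*: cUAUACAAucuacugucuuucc
let-7g*: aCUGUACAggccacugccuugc
let-7c-1*: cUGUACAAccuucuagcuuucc
let-7i*: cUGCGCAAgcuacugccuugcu
The let-7d* arm lies at chr13:48536024-48536045 on the minus strand, in the microRNA gene Mirlet7d, with the start of let-7a* from Mirlet7a-1 2164 bases away on the same strand. The let-7g* arm lies at chr9:106178902-106178923 on the plus strand, in Mirlet7g. Its start is 24723 bases from that of miR-135a*, whose arm is at chr9:106154179-106154200 on the same strand, in Mir135a-1.

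A further set of passengers is shown because their level or ratio had a low p-value or, for miR-27a*, because a blocked fit called its ratio. No seed is shared among these 7.
miR-101a*: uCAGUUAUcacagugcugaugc
miR-33*: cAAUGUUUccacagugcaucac
miR-135a*: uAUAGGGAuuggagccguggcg
miR-138*: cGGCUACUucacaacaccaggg
miR-18a*: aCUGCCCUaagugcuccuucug
miR-31*: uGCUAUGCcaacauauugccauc
miR-27a*: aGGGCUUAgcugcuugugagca

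The deposited values are threshold cycles (Ct), the PCR cycle at which a product becomes visible, so the Ct falls as the RNA rises, and a well without product stands at 40. An assay was taken as detected at a Ct below 35. Of the 67 passengers, 33 were detected in all 12 samples, 23 in some and 11 in none. Of the 43 other star-named assays 27, 9 and 7 fell into these classes, and of the 58 guides of the members 42, 11 and 5. The 11 passengers detected nowhere were miR-124*, miR-148a*, miR-293*, miR-294*, miR-302a*, miR-302b*, miR-374*, miR-463*, miR-483*, miR-488* and miR-712*. Between 40 and 45 members were detected in a ligated artery and between 38 and 45 in a control artery. The means were 42.5 ± 1.64 in ligated and 41.8 ± 2.23 in control arteries (SD, n = 6 each), and an exact two-sided permutation test gave p = 0.658.

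A guide detected in every sample did not always have a detected passenger. For 44 members the guide was detected in all 12 samples, and their passengers were detected in all 12 samples for 31, in some for 11 and in none for 2, miR-148a* and miR-374*. Within the miR-17 to miR-92 hairpins, which are cut from a shared transcript and promote cell growth, miR-18a* and miR-20a* were detected in all 12 samples and miR-17* in 11. By contrast miR-19a* was detected in 1 ligated and 1 control artery and miR-92a* in 0 ligated and 1 control artery, although their guides were detected in every sample. miR-20b* of a paralogous cluster was detected in 1 ligated and 2 control arteries. Of 8 passengers of embryonic stem cell and germ line hairpins (miR-293, miR-294, miR-302a to miR-302c, miR-463, miR-470 and miR-881), a group drawn up after their values were seen, 5 were detected nowhere and only miR-470*, in 4 ligated and 4 control arteries, was detected often enough to be tested. The neuronal passengers miR-124* and miR-488* were detected in no artery, while their guides were detected in 6 ligated and 5 control arteries for miR-124 and in 6 ligated and 2 control arteries for miR-488.

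Some wells in which a passenger was not detected stood beside wells of the same group with much product. By a rule set after the values were seen, 14 members had both a well with a Ct below 30 and an undetected well within 1 group. miR-330* had a Ct of 23.87 and 23.92 in ligated 2 and 3 and was undetected in the other 4 ligated arteries, and it lay between 22.39 and 25.99 in 4 control arteries and was undetected in 2. miR-297a* had a Ct of 22.57 and 22.93 in ligated 6 and 4 and was undetected elsewhere. The passenger of the lymphocyte miRNA miR-150, the only member from a leukocyte-enriched hairpin, was detected in no ligated artery and in 1 control artery, control 5, at a Ct of 24.97. Whether such an undetected well held little RNA or was a failed reaction was not tested, so differences of these members have no firm size.

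**Figure D1:**
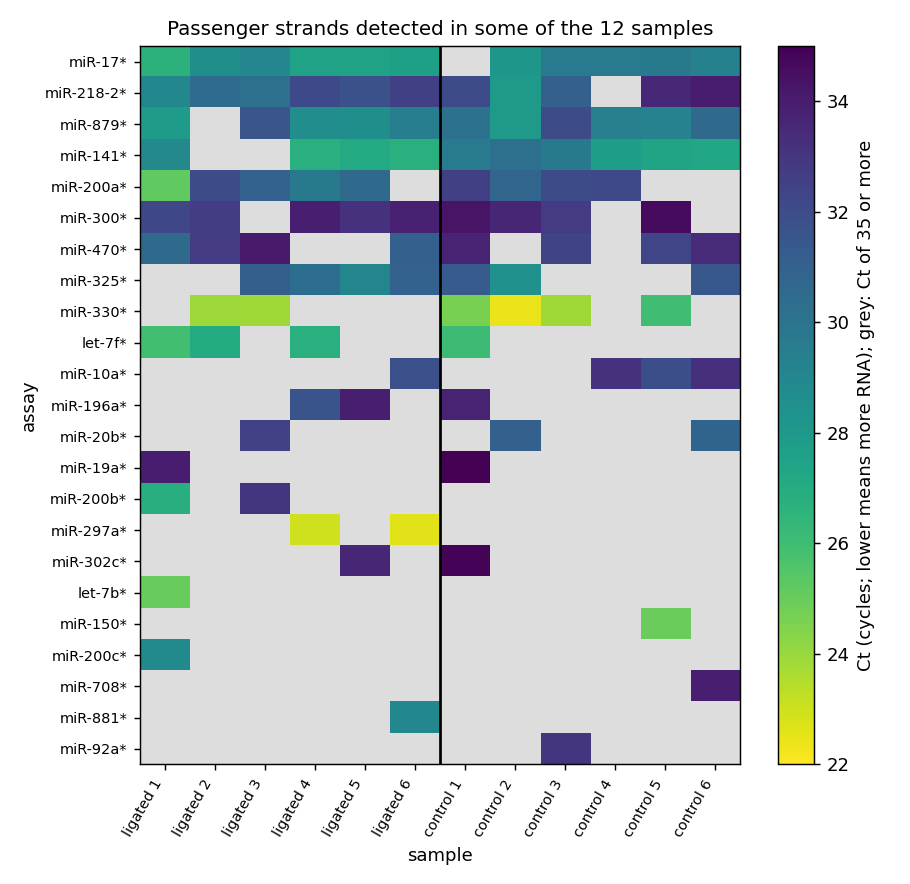
Ct (cycles, colour scale, lower means more RNA) of the 23 passengers detected in some of the 12 samples, with ligated arteries left of the line and control arteries right of it and undetected wells in grey. miR-330*, let-7f* and miR-297a* alternate between low Ct values and no detection, while the detected wells of miR-300* and miR-470* stay above 30.

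For the comparison of groups, the mean Ct over all miRNAs that every sample detected was subtracted from each Ct of a sample, and minus this scaled Ct was used as a log2 level. If every PCR cycle doubles the product, 1 unit is a doubling. A level compares samples within an assay; levels of different assays also carry their unequal efficiency. A test needed detection in 4 or more of the 6 arteries of either group, which 339 assays met, 42 of the 67 members among them. miR-325* and miR-330* entered through only 1 of the groups. The other 25 members were not tested, 11 of them because they were detected nowhere. limma with adjustment by Benjamini and Hochberg over the 339 assays called 0 of the 42 passengers, higher or lower. Over all 339 assays 12.4% were called, 7.37% higher and 5.01% lower in ligated arteries. At an unadjusted p below 0.05 there were 5 passengers, let-7d*, let-7g*, miR-101a*, miR-33* and miR-674*, or 11.9% of those tested, against 19.8% of all assays.

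The median passenger was slightly lower in ligated than in control arteries. The median difference, ligated minus control, was -0.28 on the log2 scale over the 42 passengers, with 29 below 0 and 13 above, -0.44 over 35 tested star-named assays outside the rule, and -0.05 over all 339 assays. Scaling chosen after the values were seen, to the star-named assays themselves, gave -0.04 for the passengers. On unscaled Ct the median of all 339 assays shifted to 0.93 and that of the passengers to 0.71, a shift common to every assay. The standard error of a difference had a median of 0.40 and ran from 0.18 to 2.78. For 13 of the 42 passengers the 95% interval of the difference lay within a 2-fold change either way. For the other 29 the interval reached beyond 2-fold in at least 1 direction.

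**Figure D2:**
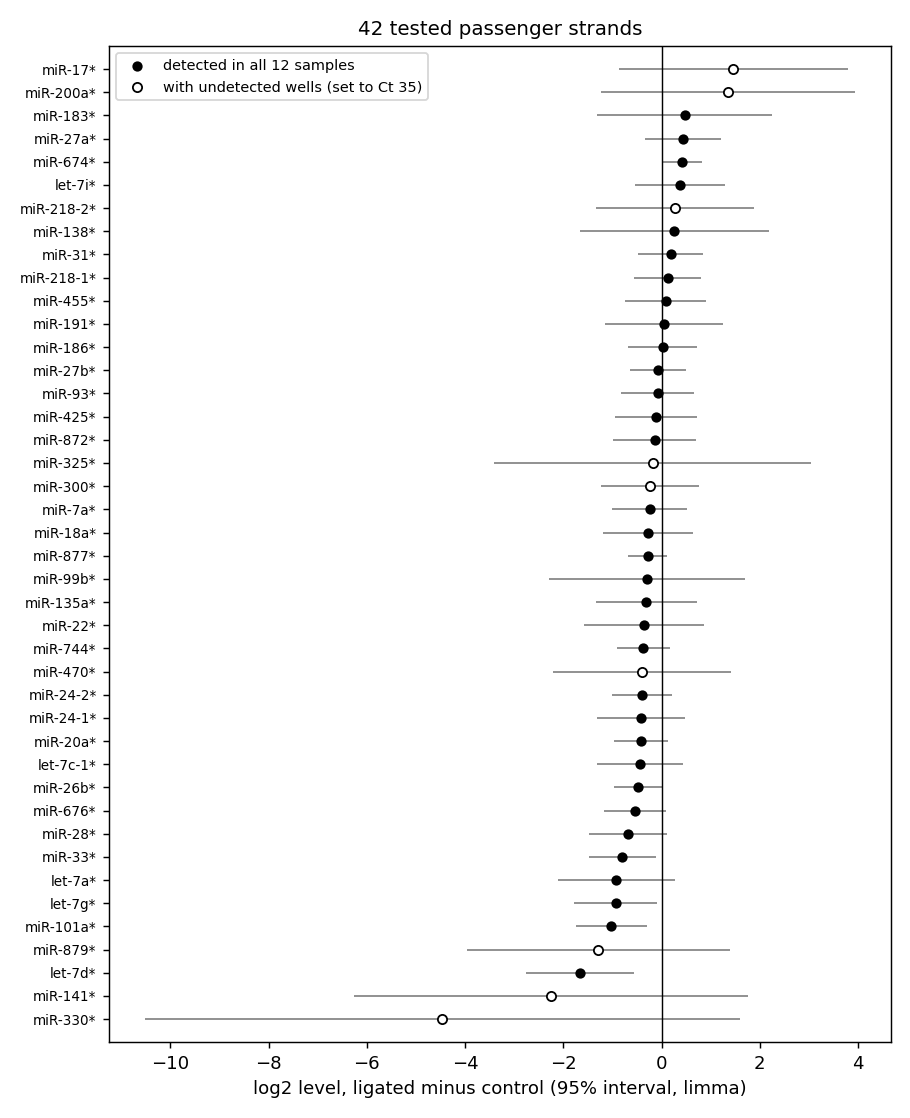
Difference in log2 level, ligated minus control, with its 95% interval from limma for the 42 tested passengers, filled where detected in all 12 samples and open where some wells were undetected and set to a Ct of 35. let-7d* lies at -1.66 and miR-101a* at -1.02, and the 2 passengers farthest below 0, miR-330* and miR-141*, have the widest intervals.

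The samples numbered 1 to 3 and 4 to 6 form 2 blocks of columns in the deposited table and are called sets here. Same-numbered arteries of the 2 groups, which lie in the same set, also deviated together from their group means. This does not tell a shared number from a shared set. Results are therefore also given from a fit with the replicate number as a block, called the number-blocked fit, and from a fit with the sets as a block, wherever a block changes a call. In the number-blocked fit, 3 of the 42 passengers were called lower, let-7d*, let-7g* and let-7a*, or 7.14%, against 6.49% of all 339 assays, and 0 were called higher, against 8.85%. With the sets as a block, 3 were called lower, let-7d*, miR-101a* and miR-33*, against 8.85% of all assays. The shares of passengers called lower were thus close to those of all assays. Within numbers 4 to 6 alone, 6 passengers were called lower and 1 higher, against 15% lower, 14.7% higher and 29.8% in either direction among all assays, and within numbers 1 to 3 alone 0 were called, against 1.47%. The ligated minus control difference was itself compared between the sets in limma. This called 0 passengers, with a lowest adjusted p of 0.545, and for 15 of 42 the difference had opposite signs in the sets. The test does not compare the levels of the sets.

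The passengers of the let-7 hairpins, whose guides restrain growth in differentiated cells, were the group with the lowest median. Of 7 members 5 were tested, 4 of which lay below 0, with a median of -0.92. Without a block 0 of the 5 were called, in the number-blocked fit 3 were called lower, against 6.49% of all assays, and with the sets as a block 1, against 8.85%. let-7b* was detected in 1 ligated and 0 control arteries and let-7f* in 3 ligated and 1 control arteries.

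let-7d* had levels of -1.003 to 1.55 with a median of 0.84 in ligated arteries, against 0.60 to 3.11 with a median of 2.64 in control arteries. Ligated 3 and control 2 were the lowest of their groups, and the groups overlapped through control 2. The means were 0.66 ± 0.89 in ligated and 2.31 ± 0.94 in control arteries (SD, n = 6 each), a difference of -1.66 ± 0.51 (SE), or 0.317-fold. The adjusted p was 0.0531 in limma, 0.0247 in the fit with replicate numbers as a block and 0.00913 in the fit with the sets as a block. The ligated artery was lower in 6 of 6 same-numbered comparisons, and the sets had differences of -1.65 (numbers 1 to 3) and -1.66 (numbers 4 to 6). The guide let-7d had a level of 3.19 ± 0.83 in ligated and 3.68 ± 0.67 in control arteries (SD, n = 6 each), a difference of -0.48 ± 0.43 (SE) with an adjusted p of 0.566.

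let-7g* had levels of -5.04 to -3.83 with a median of -4.65 in ligated arteries, against -4.66 to -2.83 with a median of -3.36 in control arteries. The lowest control arteries, control 2 and 6, lay among the ligated ones. The difference was -0.94 ± 0.39 (SE), lower in 6 of 6 same-numbered comparisons. The adjusted p was 0.178 in limma, 0.0279 in the number-blocked fit and 0.0988 with the sets as a block. Its guide let-7g differed by -0.09 ± 0.25 (SE, adjusted p 0.885 in limma).

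let-7a*, from the same stretch of chromosome 13 as let-7d*, had levels of -1.90 to 0.66 with a median of -0.10 in ligated arteries, against -0.80 to 1.47 with a median of 0.96 in control arteries. In each group the arteries numbered 4 to 6 were high and overlap between the groups was wide. The difference was -0.92 ± 0.55 (SE), again lower in 6 of 6 same-numbered comparisons. The adjusted p was 0.381 in limma, 0.0247 in the number-blocked fit and 0.0741 with the sets as a block. On unscaled Ct let-7a* and let-7g* had differences of 0.0658 and 0.0495, above 0, and let-7d* of -0.67, all below the median of 0.93 for all assays. let-7c-1* differed by -0.44 ± 0.40 (SE) and let-7i* by 0.38 ± 0.42 (SE), and neither was called in any of these 3 fits.

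miR-101a*, the passenger of a hairpin whose guide targets the chromatin modifier Ezh2, had levels of -4.32 to -2.93 with a median of -3.78 in ligated arteries, against -3.46 to -1.97 with a median of -2.66 in control arteries. Ligated 1 and 2 were the highest of the ligated arteries, and the control arteries numbered 4 to 6 the highest of all. The difference was -1.02 ± 0.33 (SE), with an adjusted p of 0.0709 in limma, 0.111 in the number-blocked fit and 0.0424 with the sets as a block. Within the sets it was -0.34 (numbers 1 to 3) and -1.71 (numbers 4 to 6). Without ligated 1 it was called lower, alone among the passengers, against 4.8% of all assays. Without control 2 both miR-101a* and let-7d* were called lower, against 5.92%.

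miR-33* comes from the intron of Srebf2, the cholesterol-sensing transcription factor, and its guide represses cholesterol export; no guide assay of this name was in the table. Its levels were -3.98 to -2.67 with a median of -3.70 in ligated arteries, against -3.28 to -2.06 with a median of -2.85 in control arteries. Ligated 1 and 2 reached into the control range. The difference was -0.80 ± 0.31 (SE), with an adjusted p of 0.142 in limma, 0.0626 in the number-blocked fit and 0.0126 with the sets as a block, lower in 5 of 6 same-numbered comparisons. On unscaled Ct it was 0.19.

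miR-674* was the only tested passenger whose ligated and control arteries did not overlap, with levels of 0.00 to 0.43 and a median of 0.10 in ligated arteries, against -0.69 to -0.04 and a median of -0.20 in control arteries. The gap was small. The difference was 0.42 ± 0.19 (SE), a ratio of 1.34, at an adjusted p of 0.247 in limma, and it stood at 0.16 in the first set and 0.67 in the second. Of all 339 assays 4.72% had all ligated arteries above all control arteries, and 2.36% had them all below, which 0 passengers did.

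**Figure D3:**
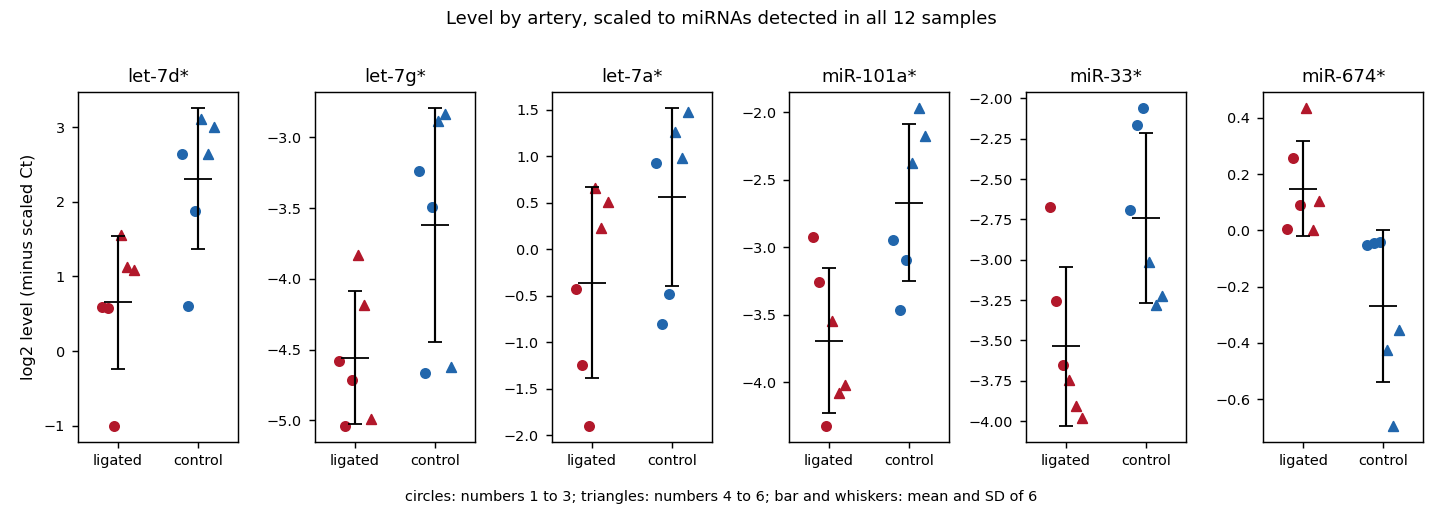
Log2 level (minus the scaled Ct) of 6 passengers in each artery, ligated left and control right, with circles for numbers 1 to 3, triangles for numbers 4 to 6, and the mean and SD of 6. The ligated means of let-7d*, let-7g*, let-7a*, miR-101a* and miR-33* lie below the control means with overlapping points, and only for miR-674* do the points not overlap.

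The other passengers with low p-values were also below 0 without a call in limma. miR-26b* differed by -0.47 ± 0.23 (SE), with levels of -2.91 to -2.23 and a median of -2.65 in ligated arteries, against -2.81 to -1.79 and a median of -2.06 in control arteries. miR-28* differed by -0.68 ± 0.37 (SE), with levels of -0.78 to 1.32 and a median of 0.11 in ligated arteries, against 0.58 to 1.37 and a median of 0.83 in control arteries. In the ligated group miR-28* separated by set, the arteries numbered 4 to 6 lying below 0 and below every control artery. miR-676* differed by -0.54 ± 0.29 (SE), with levels of -3.93 to -2.39 and a median of -2.76 in ligated arteries, against -2.86 to -2.17 and a median of -2.33 in control arteries. miR-20a*, from the miR-17 to miR-92 transcript, differed by -0.43 ± 0.25 (SE), with levels of -3.58 to -2.34 and a median of -2.90 in ligated arteries, against -3.06 to -2.13 and a median of -2.39 in control arteries. The adjusted p-values of these 4 in limma lay between 0.263 and 0.381. On unscaled Ct the 4 differences were above 0, at 0.52, 0.30, 0.45 and 0.56 in that order.

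By their scaled Ct the passengers that gave most product were miR-24-2*, miR-31*, miR-877*, let-7d*, miR-7a* and miR-872*, an order that also carries the efficiency of each assay. miR-24-2* lay at 1.43 to 2.63 with a median of 2.26 in ligated arteries, against 1.77 to 3.16 with a median of 2.62 in control arteries. miR-31*, whose guide promotes smooth muscle growth in injured rat arteries, lay at 1.17 to 2.23 with a median of 1.64 in ligated arteries, against 0.61 to 2.17 with a median of 1.52 in control arteries. miR-877* lay at 1.16 to 1.74 with a median of 1.35 in ligated arteries, against 1.46 to 1.90 with a median of 1.62 in control arteries. The groups overlapped for each, for miR-877* only through ligated 2, and the spread within a group was at most 0.57 (SD, n = 6). miR-7a* lay at 0.03 to 1.76 with a median of 1.01 in ligated arteries, against 0.72 to 1.51 with a median of 1.17 in control arteries. miR-872* lay at -0.27 to 1.48 with a median of 0.64 in ligated arteries, against -0.02 to 1.33 with a median of 0.75 in control arteries. In both groups miR-7a* and miR-872* were higher in every artery numbered 1 to 3 than in any numbered 4 to 6 of the same group. Differences of the 5 other than let-7d* lay between -0.40 for miR-24-2* and 0.19 for miR-31*, with adjusted p-values of 0.442 to 0.874 in limma.

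Passengers of the remaining hairpin groups showed no common direction. Of the 7 passengers of the miR-17 to miR-92 hairpins and paralogs 4 were tested, 3 below 0 and 1 above, with a median of -0.18 and 0 called. Of the passengers of the miR-23, miR-27 and miR-24 clusters 4 of 4 were tested, 3 below 0, with a median of -0.24. Of the 7 neuronal ones 5 were tested, 2 below 0 and 3 above, with a median of 0.13. The passengers of epithelial hairpins numbered 5, of which 3 were tested, with differences of -2.25 for miR-141*, 0.47 for miR-183* and 1.35 for miR-200a* and adjusted p-values of 0.535 to 0.819 in limma.

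Of the 5 epithelial passengers 3, miR-200a*, miR-200b* and miR-200c*, had their highest scaled level in ligated 1. For miR-141* and miR-183* the scaled level was highest in control arteries. On unscaled Ct, however, miR-141* was lowest in ligated 4 (26.749) and miR-183* in ligated 1 (24.345). miR-200a* had a Ct of 25.18 in ligated 1 and of 29.77 or more in every other artery, miR-200b* of 26.87 in ligated 1 and 33.05 in ligated 3 with no detection elsewhere, and miR-200c* of 28.80 in ligated 1 alone. Of 8 epithelial guides 6 had their highest level of the 12 samples in ligated 1. miR-203 and miR-375 were instead highest in control 6 (1.25) and control 4 (2.96). The summed level of all 8 was 6.02 in ligated 1, against 0.98 to 2.43 in the other ligated and 2.09 to 3.36 in the control arteries. Within that sum miR-375 alone lay at -4.99 to 0.98 in ligated and 0.97 to 2.96 in control arteries. let-7b* was likewise detected in ligated 1 alone, at a Ct of 25.01. The part of epithelial RNA in these values was not tested.

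The arteries carried the marker miRNAs of their tissue. The smooth muscle miRNAs miR-143 and miR-145 were detected in all 12 samples, with a summed level of 8.47 to 9.88 in ligated and 9.82 to 12.4 in control arteries. The 6 leukocyte miRNAs were also detected in all samples, with a summed level of 6.85 to 8.75 in ligated and 5.79 to 6.74 in control arteries, and the liver miRNA miR-122 was undetected in every sample. The striated muscle list had a summed level of 2.77 to 6.99 in ligated and 4.75 to 7.24 in control arteries, lower in the ligated artery in 6 of 6 same-numbered comparisons. The part of these marker differences in the passenger values was not tested. Between 330 and 357 miRNA assays were detected in a ligated artery and between 317 and 341 in a control artery.

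The star-to-guide ratio was taken within a sample as guide Ct minus star Ct, a log2 value in which any scaling cancels. A value of 0 means equal Ct, which is equal abundance only if both assays amplify equally well, so the ratio is read between samples and its sign is a description. A guide made from more than 1 hairpin is set here against the passenger of only 1 of them. The arms of miR-135a*, miR-138* and let-7a* were assigned to the loci Mir135a-1, Mir138-1 and Mirlet7a-1. Whether other hairpins added to their guides was not tested. A pair was tested where the guide was detected in all 12 samples and the passenger had passed the filter, which left 33 members among 61 pairs. The 9 passengers tested for level without a ratio were miR-141*, miR-200a*, miR-300*, miR-325*, miR-33*, miR-330*, miR-425*, miR-470* and miR-879*. Mean ratios ran from -13.1 to 5.22 in ligated and from -12.8 to 5.41 in control arteries. They were below 0 in both groups for 26 pairs and above 0 in both for 6, and miR-18a* was above 0 in control arteries only.

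The 6 passengers with a lower Ct than their guide in both groups were miR-877*, miR-135a*, miR-7a*, miR-183*, miR-674* and miR-872*, so for them the name passenger does not describe the order of the 2 Ct values. miR-877* had the highest ratios, 4.42 to 6.43 with a median of 5.16 in ligated arteries, against 4.87 to 6.02 with a median of 5.34 in control arteries. miR-7a* varied most of the 6, from 2.01 to 6.23 with a median of 3.86 in ligated arteries, against 3.59 to 7.28 with a median of 4.23 in control arteries. Its ligated arteries numbered 1 to 3 all lay above those numbered 4 to 6. miR-183* had 1.71 to 3.60 with a median of 2.76 in ligated arteries, against 1.04 to 2.48 with a median of 2.18 in control arteries. The ligated artery had the higher miR-183* ratio in 5 of 6 same-numbered comparisons, at an adjusted p of 0.255 in limma. miR-674* had 1.00 to 4.40 with a median of 2.16 in ligated arteries, against 0.99 to 3.49 with a median of 1.89 in control arteries. In each group every artery numbered 1 to 3 had a higher miR-674* ratio than any numbered 4 to 6. miR-872* had 0.95 to 2.04 with a median of 1.64 in ligated arteries, against 1.72 to 2.46 with a median of 2.11 in control arteries. At the other end were miR-24-1*, with -13.1 ± 0.42 in ligated and -12.8 ± 0.81 in control arteries, and miR-191*, with -12.2 ± 2.29 in ligated and -12.0 ± 1.48 in control arteries (SD, n = 6 each). In each group the miR-191* ratio was lower in every artery numbered 1 to 3 than in any numbered 4 to 6.

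**Figure D4:**
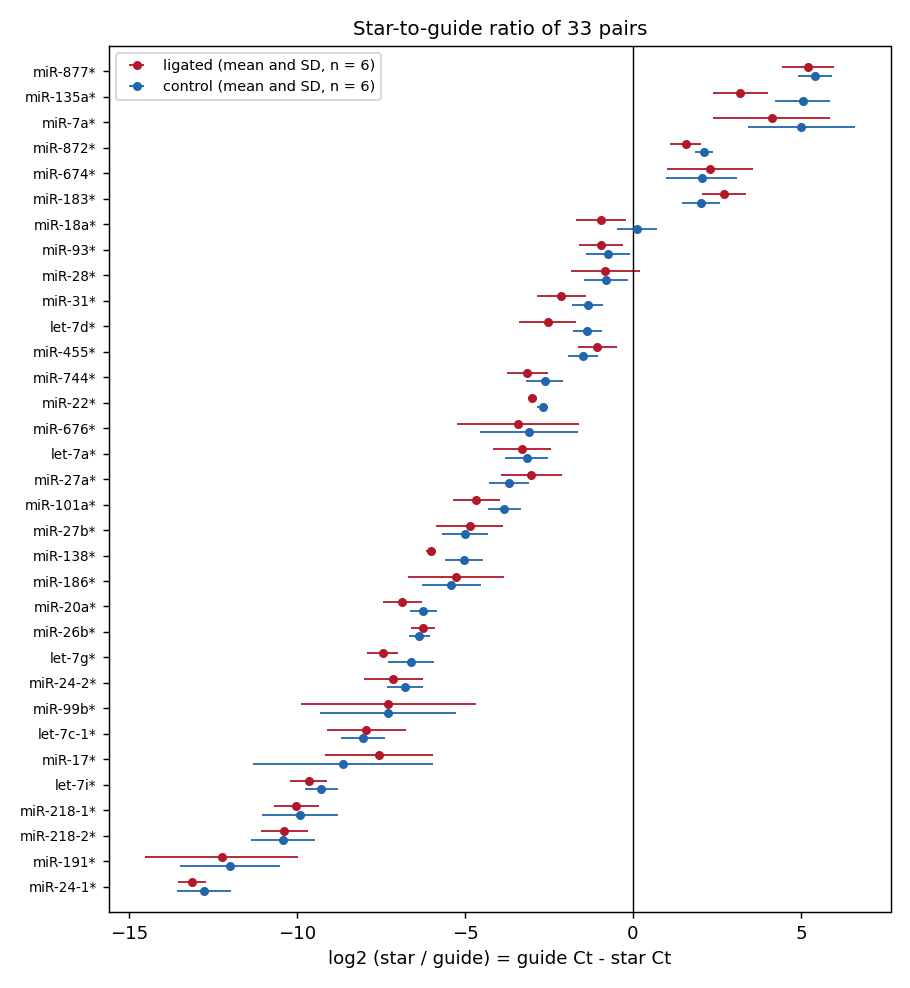
Mean log2 star-to-guide ratio (guide Ct minus star Ct) with SD for the 33 pairs, ligated above control, n = 6 each. miR-877*, miR-135a*, miR-7a*, miR-183*, miR-674* and miR-872* lie right of 0 in both groups, and miR-24-1* and miR-191* lie farthest left.

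limma called 0 of the 33 ratios and 0% of all 61 pairs. At an unadjusted p below 0.05 there were 7 members, let-7d*, let-7g*, miR-101a*, miR-135a*, miR-138*, miR-18a* and miR-31*, or 21.2%, against 21.3% of all pairs. The median difference, ligated minus control, was -0.24 over the members, with 22 below 0 and 11 above, and -0.24 over all pairs. In the number-blocked fit 6 members were called lower, let-7d*, let-7g*, miR-135a*, miR-138*, miR-18a* and miR-31*, or 18.2%, against 18% of all pairs, and miR-27a* was called higher, 3.03% against 3.28%. With the sets as a block 2 were called lower, miR-135a* and miR-138*, or 6.06%, against 11.5% of all pairs. The members' shares were thus near or below those of all pairs. When the ratios of each sample were centred on their median, an alternative chosen after the values were seen, the median over members became 0.10 and the lowest adjusted p 0.150. In the fit without a block or centring, the 95% interval lay within a 2-fold change for 2 of the 33 ratios.

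miR-135a* had the lowest p of the ratios, with values of 2.18 to 4.18 and a median of 3.32 in ligated arteries, against 4.27 to 6.58 and a median of 4.77 in control arteries. The groups did not overlap, which was so for 1.64% of all pairs in this direction, miR-135a* being that pair. The means were 3.19 ± 0.82 in ligated and 5.06 ± 0.81 in control arteries (SD, n = 6 each), a difference of -1.86 ± 0.46 (SE), or 0.275-fold. The adjusted p was 0.0830 in limma, 0.00886 in the number-blocked fit and 0.00967 with the sets as a block, and the difference was -2.001 in the first set (numbers 1 to 3) and -1.72 in the second. The guide itself was higher in ligated arteries, at -4.66 ± 0.51 against -6.21 ± 1.04 in control arteries (SD, n = 6 each), by 1.55 ± 0.46 (SE) with an adjusted p of 0.0455 in limma, or 0.0769 in the number-blocked fit. In control 4 the guide was near the detection limit, at a level of -7.81, where an undetected well of that artery stands at -8.57. At the stricter detection limit of 33 this pair had no ratio. The passenger level differed by -0.31 ± 0.47 (SE, adjusted p 0.776 in limma), with -1.19 in the first set and 0.57 in the second. The guide differed by 0.81 in the first set and by 2.29 in the second. Compared between the sets in limma, neither the passenger level difference (adjusted p 0.545) nor the ratio difference (adjusted p 0.993) was called.

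miR-138*, from a hairpin known in neurons, had ratios of -6.16 to -5.80 with a median of -6.04 in ligated arteries, against -6.06 to -4.54 with a median of -4.86 in control arteries. The ligated arteries lay close together, and control 2 alone fell among them. The means were -6.02 ± 0.14 in ligated and -5.02 ± 0.57 in control arteries (SD, n = 6 each), a difference of -1.002 ± 0.273 (SE), with an adjusted p of 0.0830 in limma, 0.0211 in the number-blocked fit and 0.0293 with the sets as a block. Across the control arteries the SD was 2.16 for the level of miR-138* and 2.55 for that of its guide (n = 6 each), so both varied far more than their ratio. Without ligated 4 the ratio of miR-135a* was called lower, against 3.28% of all pairs, and without control 2 that of miR-138*, against 1.64%.

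The let-7d* ratio was -3.78 to -1.32 with a median of -2.58 in ligated arteries, against -2.05 to -0.75 with a median of -1.32 in control arteries. The ligated arteries 1 and 4 reached into the control range. The difference was -1.18 ± 0.39 (SE). The adjusted p was 0.111 in limma, 0.0389 in the number-blocked fit and 0.0672 with the sets as a block. let-7g* had ratios of -8.17 to -6.87 with a median of -7.43 in ligated arteries, against -7.82 to -5.96 with a median of -6.33 in control arteries, and number 6 was the lowest of both groups. Its difference was -0.85 ± 0.34 (SE). The adjusted p was 0.180 in limma, 0.0283 in the number-blocked fit and 0.0926 with the sets as a block. For let-7a* the ratio differed by -0.13 ± 0.43 (SE), its guide having a level difference of -0.79 ± 0.59 (SE) beside -0.92 for the passenger. The ratios of let-7c-1* and let-7i* differed by 0.10 ± 0.53 (SE) and -0.39 ± 0.32 (SE). None of these let-7 ratios was called without a block. Whether the ratio differences of the let-7 pairs differ from each other was not tested.

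miR-18a* had ratios of -2.28 to 0.00 with a median of -0.85 in ligated arteries, against -0.80 to 1.01 with a median of 0.16 in control arteries. Ligated 4 was the ligated artery nearest to 0, and control 2 and 3 were the control arteries below 0. The difference was -1.08 ± 0.39 (SE). The adjusted p was 0.134 in limma, 0.0494 in the number-blocked fit and 0.0674 with the sets as a block. The guide miR-18a had a level difference of 0.80 ± 0.26 (SE) and the passenger of -0.27 ± 0.42 (SE). miR-31* had ratios of -3.45 to -1.59 with a median of -1.78 in ligated arteries, against -1.95 to -0.63 with a median of -1.29 in control arteries. Its difference was -0.79 ± 0.36 (SE). The adjusted p was 0.230 in limma, 0.0478 in the number-blocked fit and 0.0766 with the sets as a block. The guide miR-31 had a level difference of 0.98 ± 0.30 (SE) beside 0.19 for the passenger. miR-101a* had ratios of -5.43 to -3.55 with a median of -4.81 in ligated arteries, against -4.34 to -3.19 with a median of -3.90 in control arteries, a difference of -0.83 ± 0.36 (SE) with an adjusted p of 0.198 in limma and 0.132 in the number-blocked fit. Its guide had a level difference of -0.19 ± 0.18 (SE), beside -1.02 for the passenger. The miR-101a* ratio was not called with the sets as a block either (adjusted p 0.104 in limma). It differed by -0.22 within numbers 1 to 3 and by -1.44 within numbers 4 to 6.

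miR-27a* was the member called higher in the number-blocked fit. Its ratio was -4.30 to -1.91 with a median of -2.73 in ligated arteries, against -4.71 to -3.06 with a median of -3.58 in control arteries. The groups overlapped widely, but the ligated artery was higher in 6 of 6 same-numbered comparisons. The difference was 0.67 ± 0.43 (SE). The adjusted p was 0.371 in limma, 0.0494 in the number-blocked fit and 0.149 with the sets as a block. Passenger and guide levels differed by 0.44 ± 0.36 (SE) and -0.23 ± 0.38 (SE).

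**Figure D5:**
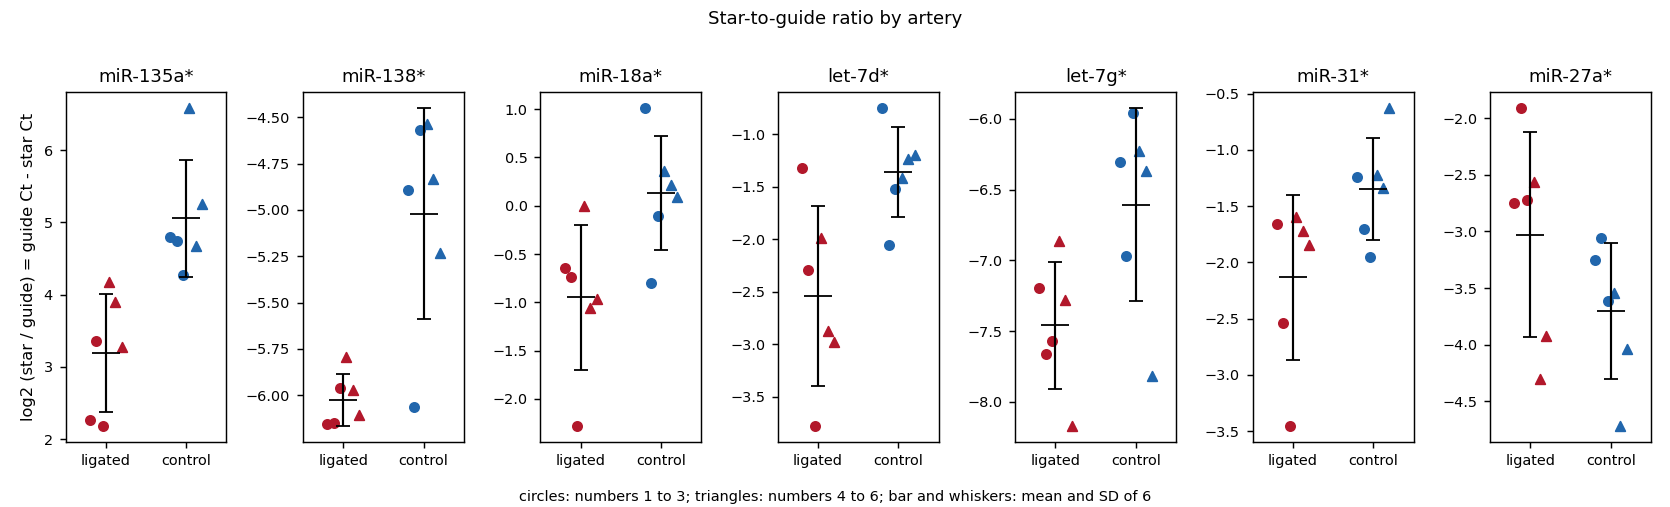
Log2 star-to-guide ratio of 7 pairs in each artery, ligated left and control right, with circles for numbers 1 to 3, triangles for numbers 4 to 6, and the mean and SD of 6. The points of miR-135a* do not overlap, those of miR-138* overlap at control 2, and for miR-27a* the ligated mean is the higher one.

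Some guides are made from more than 1 hairpin, and the passengers then tell the hairpins apart. miR-24 is identical from both of its hairpins, on chromosomes 13 and 8, while the 2 passengers share the seed and differ towards the 3′ end.
miR-24: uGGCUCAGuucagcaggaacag
miR-24-1*: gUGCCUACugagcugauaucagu
miR-24-2*: gUGCCUACugagcugaaacagu
miR-24-1* is at chr13:63301213-63301235 and miR-24-2* at chr8:84208839-84208860, both on the plus strand, the second beside miR-27a* at chr8:84208685-84208706. The log2 ratio of miR-24-1* over miR-24-2* was -5.99 ± 0.92 in ligated and -5.97 ± 1.04 in control arteries (SD, n = 6 each), a difference of -0.02 (exact two-sided permutation p = 0.970). For the hairpins of miR-218 the ratio of miR-218-1* over miR-218-2* was 0.36 ± 0.88 in ligated and 0.51 ± 1.45 in control arteries (SD, n = 6 each), a difference of -0.14 (exact two-sided permutation p = 0.827, adjusted p 0.970 over the 2 pairs). These p-values do not show that the hairpins contributed alike, since the smallest difference that could have been detected was not worked out.

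The guides of the members were compared in the same way. Of 58 guides with values 47 were tested, with a median level difference of 0.14, against -0.05 over all 339 assays. Without a block, limma called miR-135a higher and miR-708 lower, against 7.37% higher and 5.01% lower of all assays. The level of miR-135a in control 4 was near the detection limit. The number-blocked fit called let-7i and miR-18a higher and miR-708 lower, against 8.85% higher and 6.49% lower of all assays. With the sets as a block 4 were called higher, let-7i, miR-135a, miR-18a and miR-31, and 4 lower, let-7a, let-7f, miR-26b and miR-708. Of all assays 10.9% were called higher and 8.85% lower in that fit. miR-708 differed by -1.09 ± 0.25 (SE, adjusted p 0.0155 in limma), and its passenger was detected in 0 ligated and 1 control artery, at a Ct of 33.91. miR-10a, blank in the main table, was measured in a separate run scaled to its own control RNAs, with levels of -4.46 ± 0.19 in ligated and -4.88 ± 0.29 in control arteries (SD, n = 6 each), a difference of 0.42 (exact two-sided permutation p = 0.0216). Its passenger miR-10a* was detected in 1 ligated and 3 control arteries of the main run, at a Ct of 31.84 or more, and no ratio was formed across the runs.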

How the data were processed

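RNA came from whole arteries (mirVana kit) and was assayed for miRNAs by quantitative PCR, per the labels' protocols. The deposited main table holds raw Ct values, per the file headers, for 513 miRNA assays with values, and 4 more are blank. The deposited value table, with 519 rows, was recovered within 5e-05 cycles in 513 rows by subtracting from Ct the mean Ct of the control RNAs U6 and snoRNA429. The sources used here do not name the instrument or its threshold. Which assays shared a card is also unknown, so an offset between passenger and guide cards could not be removed except by centring. Repeated rows of a control RNA differed by 0.26 to 1.01 cycles on average.

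The members and lists were chosen with earlier results of these data known. Undetected wells (Ct of 35 or more) were set to 35. Levels and ratios were fitted with limma 3.58.1 (lmFit, eBayes) in R 4.3.3, with Benjamini-Hochberg adjustment over all 339 assays or 61 pairs, and an adjusted p-value below 0.05 was called. The fits without a block, of levels and of ratios, were tested on simulated data. The simulation had no sets, pairs or undetected wells, and its planted shifts were larger than most differences of the members. It therefore does not show how the fits perform under those conditions. The guide of a star was the assay of the same name without the star or locus number. Given in full were called members, those with the 10 lowest p-values for level and 6 for ratio, the 6 highest levels, ratios above 0, and outlying samples. Members called only with a block were added. Figures were drawn with matplotlib 3.10.9.

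The main fit had no block. Deviations of same-numbered arteries from their group means correlated with r between 0.283 and 0.622 for levels and between 0.459 and 0.804 for ratios, above 0.1 in every pair, so numbers were treated as pairs in the blocked fit. The pairing comes from the numbers in the labels, and 2 of 6 arteries had their own number as best match. Since same-numbered arteries lie in the same set, r does not tell pairs from sets. The series text calls the 6 samples of a group biological replicates.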

Additional observations from a re-analysis of the deposited data

Results flagged for a closer look

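In 84 level groups and 66 ratio groups of 6 arteries, 150 in all, 5 values stood far from the other 5 of their group by Dixon's ratio, where chance alone flags about 1 group in 20. Of these, 3 are undetected wells set to a Ct of 35 and so only bounds. They are the miR-17* level in control 1 (-10.02, the others -4.59 to -3.14), the miR-17* ratio in control 1 (-13.9, the others -8.67 to -6.63) and the miR-300* level in ligated 3 (-11.0, the others -8.88 to -8.11). The remaining 2 concern miR-744*. Its level was -3.66 in ligated 3, while the other ligated arteries lay between -2.94 and -2.72, and its median was -2.89 in ligated and -2.49 in control arteries. Its ratio to miR-744 was -3.68 in control 4, while the other control arteries lay between -2.68 and -2.15. The level differed by -0.37 ± 0.25 (SE) and the ratio by -0.52 ± 0.35 (SE), neither called in limma.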

How the results depend on the processing

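Without a block 0 members were called, and 27 alternatives for levels and 23 for ratios gave the counts below, or 0 where none is named. Shares called over all assays or pairs at the same setting follow in parentheses. For levels, 3 were higher on raw Ct (16.8%), 1 with array weights (15%) and 1 within numbers 4 to 6 (14.7%). Lower were 3 with the replicate block (6.49%), 3 with the sets as a block (8.85%), 1 at a detection limit of 33 (5.41%), 1 with undetected wells missing (5.33%), 1 among assays detected in all 12 samples (6.36%), 5 with array weights (14.7%) and 6 within numbers 4 to 6 (15%). Leaving out 1 artery gave 0 to 2 lower (2.65% to 5.92%) and 0 to 0 higher (4.42% to 7.69%). For ratios, the replicate block gave 1 higher (3.28%) and 6 lower (18%) and the sets as a block 2 lower (11.5%). Array weights gave 5 lower (13.1%) and numbers 4 to 6 alone 4 lower (11.5%). Leaving out 1 artery gave 0 to 1 ratios lower (0% to 3.28%). On raw Ct the median level difference was 0.71, against -0.28 with scaling, and 24 of the 42 tested members changed sign. Of the 10 members with the lowest p for level 7 did so, to 0.19 for miR-33*, 0.0495 for let-7g*, 0.0658 for let-7a*, 0.52 for miR-26b*, 0.30 for miR-28*, 0.45 for miR-676* and 0.56 for miR-20a*, because no scaling was made. The difference in members detected per artery ran from -0.1 without control 4 to 1.3 without control 1 and was 1.83 at a detection limit of 33 (exact permutation p = 0.173), with a sign-flip p of 0.75 under the replicate block (exact). At a limit of 33 miR-135a* had no ratio. The cause of the other changes was not tested. Undetected wells limit 9 of the 42 tested levels, and scaled levels rest on the assumption that miRNAs detected everywhere keep their mean.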
